A study of Mus musculus with 24 samples.

Results

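The 33 genes described here encode proteins that copy DNA or divide the cell, and they were read out of every library of RNA sequencing from 3 cell populations of mouse epididymal fat. The members were taken by gene symbol, 13 replication genes and 20 mitosis genes, and all 33 were found among the 21063 gene rows of both deposited count tables. The mice were obese male C57BL/6J animals, 18 to 20 weeks old and 38 to 42 g, all of them on a high-fat diet throughout, which for Warm and Cold began at 6 weeks of age. Warm animals lived at thermoneutrality (29 to 30 °C), and Cold animals were moved from there to 18 °C for 7 days and then to 4 °C until harvest on day 14. Other animals, also kept at thermoneutrality, received 10 mg/kg of bFKB1 into the peritoneal cavity and was harvested after 8 days. bFKB1 is an antibody that mimics the hormone FGF21. M1 macrophages and M2 macrophages were sorted from all 3 sets and adipose progenitors from Warm and Cold animals only, which gave 8 groups of 3 libraries, 24 in all. Each Warm or Cold library pooled the sorted cells of 5 mice. Pooling is not given for bFKB1, and since the labels name no group that received a vehicle, bFKB1 was compared with Warm. How M1, M2 and progenitors were gated is not stated.

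Cells that divide pass through an S phase, in which they copy their DNA, and a later mitosis, in which they share it between daughter cells. Transcription follows that order in 2 waves. The E2F factors, released when the retinoblastoma protein is phosphorylated, drive genes for the helicase, the clamp and the nucleotide supply before S phase. Genes for the mitotic kinases, the spindle and the proteolysis that ends mitosis rise later, through a complex of MuvB proteins with B-Myb and FOXM1 that reads a motif called CHR, often next to NF-Y bound at CCAAT. Resting cells silence the second wave through the DREAM complex at the same sites. In obese fat, macrophages are known to divide in place, and progenitors are known to divide before they form new adipocytes.

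The promoters of the members carry these letters, and they are shown because the results below part the 2 classes. Promoters of 300 bases, 250 before and 50 after the gene start, were available for 26 of the 33 members (RefSeq, GRCm38.p6). CHR letters (the run TTTGAA or the run TTCGAA, on either strand) stood in 12 of 15 mitosis promoters (80.0%), in 2 of 11 replication promoters (18.2%) and in 21.7% of the promoters of 27025 genes. The CCAAT letters stood in 14 of 15 (93.3%), in 8 of 11 (72.7%) and in 41.1% of all. E2F-type letters (the run TTCCCGC, the run TTGGCGC, the run TTCGCGC or the run TTGCCGC, on either strand) went the other way, with 3 of 15 mitosis promoters (20.0%), 7 of 11 replication promoters (63.6%) and 10.9% of all. CHR and CCAAT letters together were in 12 of 15, 2 of 11 and 8.61%. Single motifs can overlap one another, and a match is a run of letters, not a site shown to be bound. Whether motif content goes with the change of a gene in these data was not tested.

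**Figure D1:**
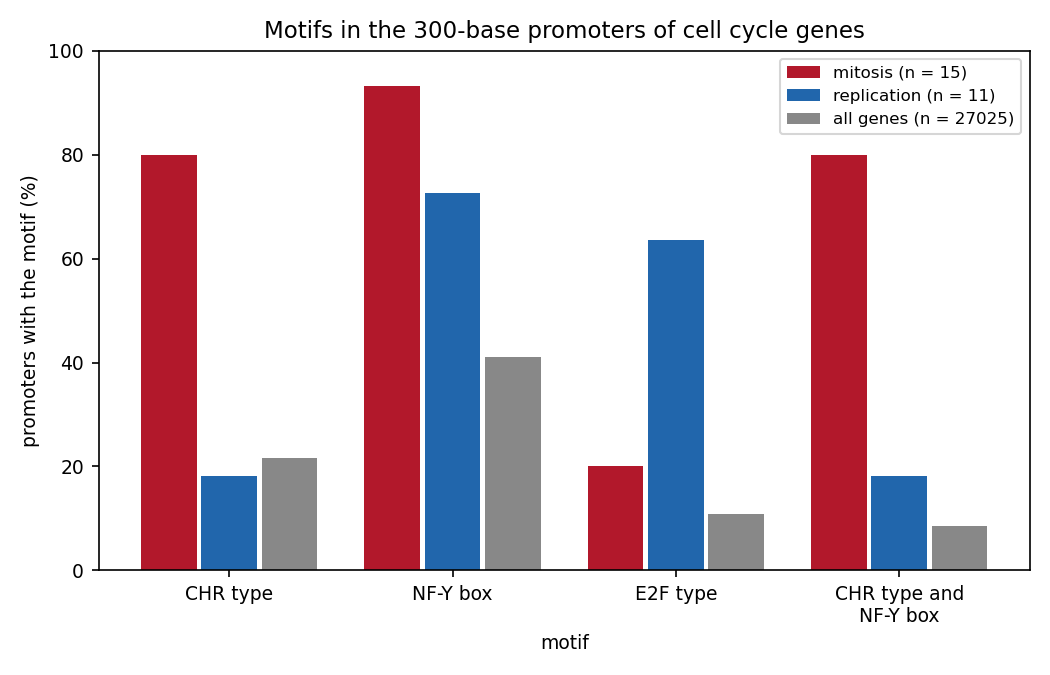
Percent of promoters with each motif (vertical axis) for 15 mitosis genes, 11 replication genes and all 27025 genes with a promoter of 300 bases. CHR letters were in 80.0% of the mitosis promoters and E2F-type letters in 63.6% of the replication promoters; NF-Y box stands for the CCAAT letters.

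The promoters of 6 members show the arrangement, each written 5′ to 3′ on the strand of its gene with CHR, CCAAT and E2F-type letters in capitals. Ccnb2 (chr9:70421505-70421804, minus strand), Ube2c (chr2:164769679-164769978, plus strand) and Cdk1 (chr10:69352863-69353162, minus strand) are examples of mitosis genes that fell several-fold in progenitors in the cold. Birc5 and Plk1, which are not shown, fell there by more than Ccnb2. Mcm3 (chr1:20820263-20820562, minus strand), Mcm5 (chr8:75109259-75109558, plus strand) and Mcm6 (chr1:128359656-128359955, minus strand) are examples of replication genes. They differed there by 0.16, -0.50 and 0.09 on the log2 scale, and Mcm5 was called lower. Mcm2, which is not shown, was not called there. The 6 were not picked by a ranking of their change.
Ccnb2: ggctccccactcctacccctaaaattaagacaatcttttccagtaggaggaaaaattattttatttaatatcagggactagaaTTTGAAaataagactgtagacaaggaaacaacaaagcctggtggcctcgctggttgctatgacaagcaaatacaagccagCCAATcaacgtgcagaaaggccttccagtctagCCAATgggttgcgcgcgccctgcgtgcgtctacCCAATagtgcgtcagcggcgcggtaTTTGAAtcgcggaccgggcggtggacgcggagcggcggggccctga
Ube2c: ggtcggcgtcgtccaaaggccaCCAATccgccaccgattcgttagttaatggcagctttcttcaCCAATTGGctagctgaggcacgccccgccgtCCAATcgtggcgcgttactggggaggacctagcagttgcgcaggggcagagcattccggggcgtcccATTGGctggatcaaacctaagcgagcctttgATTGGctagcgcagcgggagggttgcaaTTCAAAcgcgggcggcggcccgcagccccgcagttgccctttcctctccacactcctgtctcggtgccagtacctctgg
Cdk1: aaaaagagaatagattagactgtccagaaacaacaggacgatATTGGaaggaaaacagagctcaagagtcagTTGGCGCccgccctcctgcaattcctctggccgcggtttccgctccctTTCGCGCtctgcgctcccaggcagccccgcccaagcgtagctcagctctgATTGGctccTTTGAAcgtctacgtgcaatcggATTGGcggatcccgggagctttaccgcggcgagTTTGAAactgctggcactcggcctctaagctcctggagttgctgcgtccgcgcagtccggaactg
Mcm3: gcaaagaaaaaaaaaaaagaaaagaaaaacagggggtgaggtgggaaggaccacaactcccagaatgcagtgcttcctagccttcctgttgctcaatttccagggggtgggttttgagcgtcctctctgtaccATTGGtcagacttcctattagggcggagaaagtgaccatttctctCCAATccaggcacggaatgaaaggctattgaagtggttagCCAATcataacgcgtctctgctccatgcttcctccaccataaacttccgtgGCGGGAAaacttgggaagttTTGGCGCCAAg
Mcm5: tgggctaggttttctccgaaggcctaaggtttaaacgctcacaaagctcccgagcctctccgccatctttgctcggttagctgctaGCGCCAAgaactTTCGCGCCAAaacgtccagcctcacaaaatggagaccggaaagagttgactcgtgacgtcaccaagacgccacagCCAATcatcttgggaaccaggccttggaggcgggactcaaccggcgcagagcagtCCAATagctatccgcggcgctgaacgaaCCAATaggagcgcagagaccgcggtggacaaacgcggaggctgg
Mcm6: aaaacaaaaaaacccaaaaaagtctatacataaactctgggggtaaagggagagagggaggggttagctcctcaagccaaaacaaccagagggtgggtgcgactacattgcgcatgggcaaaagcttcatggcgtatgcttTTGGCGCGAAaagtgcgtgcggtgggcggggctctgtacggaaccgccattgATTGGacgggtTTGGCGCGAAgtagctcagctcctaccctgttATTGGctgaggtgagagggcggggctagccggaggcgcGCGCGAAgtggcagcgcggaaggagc
Ccnb2 held 2 CHR and 3 CCAAT matches with no E2F-type match, and Ube2c 1 CHR and 6 CCAAT matches. Cdk1 held all kinds, with 2 CHR, 3 CCAAT and 2 E2F-type matches. The 3 Mcm promoters held no CHR match and 3, 3 and 5 E2F-type matches for Mcm3, Mcm5 and Mcm6. Not all members were built this way. The mitosis genes Birc5, Ccnb1 and Cenpe held no CHR match, and Birc5 no CCAAT or E2F-type match either. Mcm2 held 1 CHR match and no E2F-type match, and Pcna, Tk1 and Tyms held no E2F-type match. Birc5 and Mcm5 were both called lower in progenitors in the cold.

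The libraries held 14.4 to 34.6 M counts, and the labelled populations were checked on marker genes. Csf1r, the receptor for the macrophage growth factor CSF1, stood at 1630 to 6140 CPM (counts per 1000000 counts of the library) in macrophage libraries and at 4.32 to 46.4 CPM in progenitor libraries. Pdgfra, a receptor that marks adipose progenitors, was at 496 to 1190 CPM in progenitors and at 9.17 to 66.7 CPM in macrophages other than Cold M1. The Cold M1 libraries held 113 to 417 CPM of Pdgfra and 1350 to 4220 CPM of the matrix gene Dcn, against 158 to 589 CPM of Dcn in Warm M1. Over 16 progenitor markers their RNA came to an estimated 41.4%, 18.9% and 12.9% of the progenitor level in Cold M1 libraries 1, 2 and 3, against 2.05% to 7.34% in Warm M1, 2.26% to 7.44% in bFKB1 M1 and 1.02% to 2.75% in M2. Macrophage RNA in progenitor libraries, over 12 markers, came to 2.11%, 1.78% and 0.317% of the M2 level of the same condition in Warm libraries 1, 2 and 3 and to 0.142%, 0.903% and 0.201% in Cold. The cell cycle results that these shares touch are given with them below. In pooled cells, fewer dividing cells and less of these RNAs in each cell cannot be told apart.

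Levels of the members differed most between the populations. Per kilobase of exon, the most abundant members in Warm M1 were Mcm3 with 39.2 ± 2.47 (SD, n = 3), Mcm5 with 36.7 ± 2.53, Mcm6 with 35.1 ± 0.94 and Mki67 with 34.2 ± 5.14 CPM per kilobase. Mcm3, Mcm5 and Mcm6 are subunits of the helicase that opens DNA for copying, and Mki67 encodes Ki-67, which coats mitotic chromosomes and is the usual marker of dividing cells. Mcm5 and Mki67 overlapped the others over the 3 libraries, whereas every Mcm3 value lay above every Mcm6 value. Ccnb1, a mitotic cyclin, was the lowest at 0.45 ± 0.0352 CPM per kilobase. In Warm M2 the order began with Mki67 (37.4 ± 4.38), Mcm3 (34.6 ± 3.02) and Mcm6 (30.9 ± 3.24 CPM per kilobase). In Warm progenitors Mcm4 (8.29 ± 0.384), Mcm6 (6.22 ± 0.268), Mcm3 (4.09 ± 0.499) and Rrm1 (3.34 ± 0.145 CPM per kilobase) led, all of them replication genes, and Mki67 stood at 1.23 ± 0.465. Reads of Ccnb1, Stmn1, Mcm7, Pcna and Kif20a are uncertain, because 42.1%, 36.5%, 34.2%, 31.8% and 31.2% of the 50-base windows of their transcripts also occur in other genes or pseudogenes, and strand use in the counting is not stated.

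As a summary of each library, the mean of log2(CPM + 0.5) was taken over the replication genes and over the mitosis genes. The replication level was 5.33 to 5.46 in Warm M1, 4.94 to 5.20 in Warm M2 and 2.81 to 3.09 in Warm progenitors. The mitosis level was 4.87 to 5.14, 4.82 to 4.84 and 1.29 to 2.07 in the same groups. Within a library the mitosis level lay below the replication level by 0.12 to 0.58 in all 18 macrophage libraries and by 1.01 to 2.37 in the 6 progenitor libraries, without overlap between the populations.

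**Figure D2:**
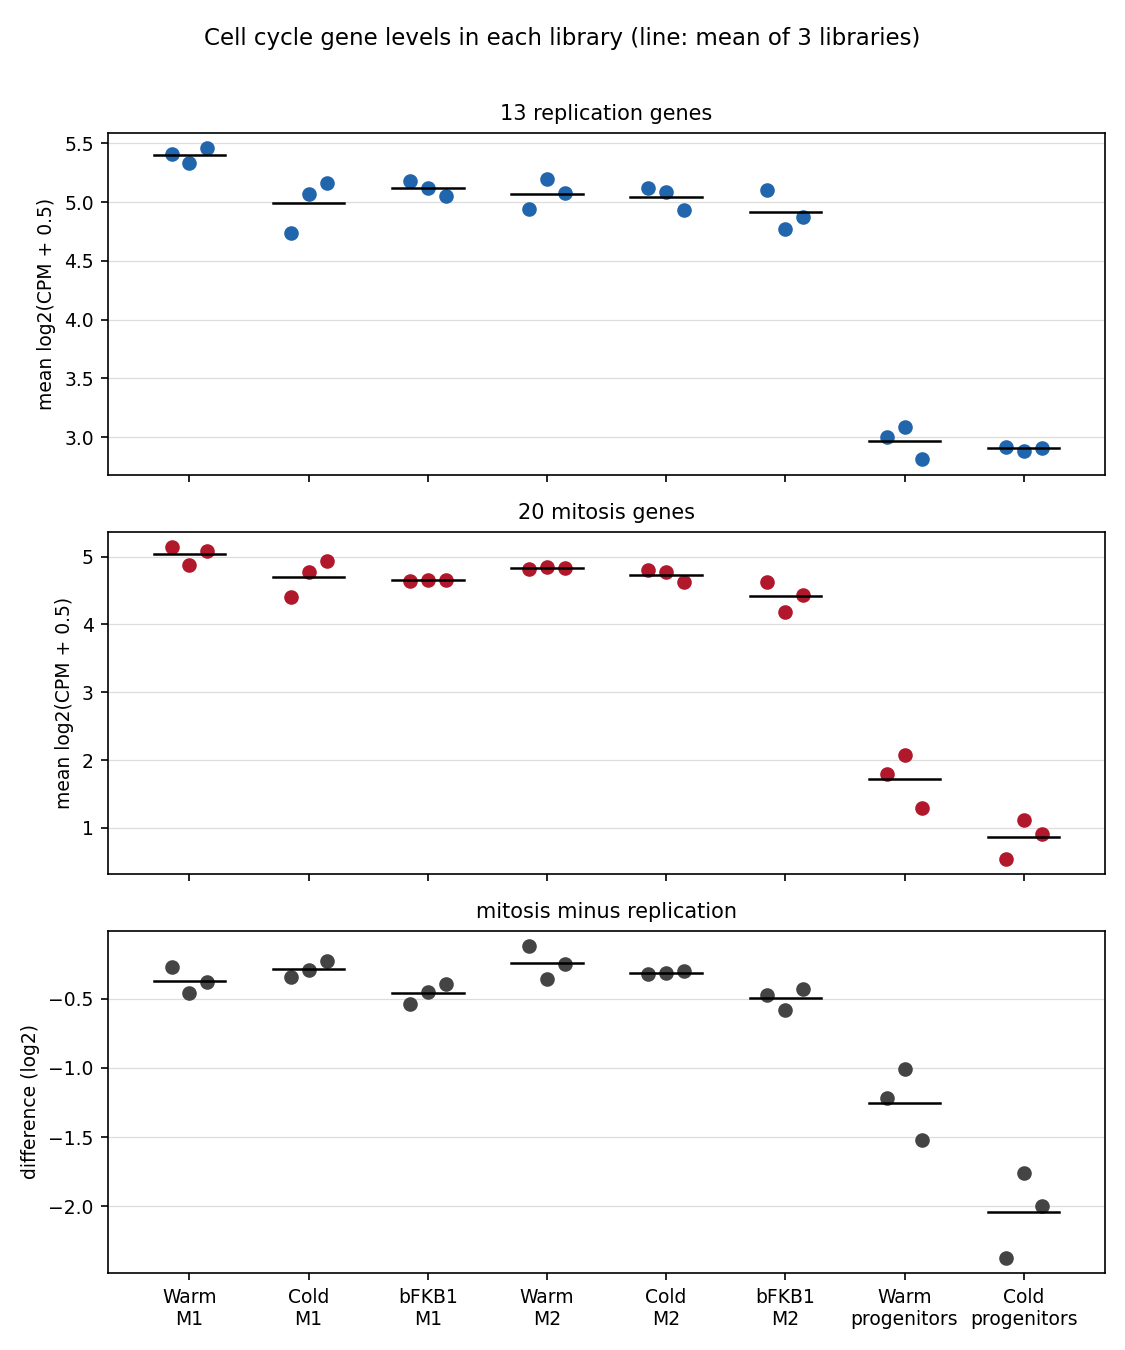
Mean log2(CPM + 0.5) of the 13 replication genes, of the 20 mitosis genes, and their difference, for each of the 24 libraries by group (points) with the mean of 3 libraries (lines). Cold progenitors lie below Warm progenitors for mitosis (0.86 against 1.72 on average) but not for replication (2.90 against 2.97).

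All 33 members were lower in Warm progenitors than in Warm M1 and than in Warm M2 macrophages. Of 13687 genes tested with edgeR's quasi-likelihood test, 39.3% were called lower than in M1 and 42.7% higher, and 39.5% lower and 42.1% higher than in M2, at a Benjamini-Hochberg adjusted p under 0.05. Mki67 was at 11.9, 17.3 and 7.98 CPM in the 3 Warm progenitor libraries, at 391, 289 and 354 CPM in Warm M1 and at 329, 417 and 381 CPM in Warm M2. The populations were far apart for it, with 21.8-fold less in progenitors than in M1 (log2 fold change -4.44 ± 0.32 SE, adjusted p = 4.85e-09) and 25.4-fold less than in M2. Top2a, the topoisomerase that untangles sister chromosomes, was 17.8-fold lower than in M1, and the kinetochore motor Cenpe 17.2-fold. Replication genes differed less in the median (-2.14 against -3.36 for mitosis genes in the comparison with M1, and -2.05 against -3.08 with M2). Tyms, thymidylate synthase, differed by 1.33-fold from M1 (-0.41 ± 0.13, adjusted p = 0.00927), the sliding clamp Pcna by 2.10-fold and Mcm4 by 2.41-fold. Pathway genes outside the members went the same way. Lower than in M1 were 28 of 30 other replication genes and 38 of 40 other mitosis genes. Among them were Uhrf1, whose protein helps maintain DNA methylation at the fork, at -4.30 ± 0.15 and the spindle kinesin Kif15 at -4.36 ± 0.21. In the same comparison 1 other replication gene and 2 other mitosis genes were higher.

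In progenitors the classes differed in the cold. Mitosis genes fell, 11 of the 18 tested and none higher, by 1.98-fold to 4.64-fold, while of the 13 replication genes 3 fell, 1 rose and 9 were not past the threshold. Among the 12910 genes tested 16.6% were lower and 18.4% higher in Cold. The median log2 fold change was -1.32 over the mitosis genes, -0.18 over the replication genes and 0.00 over all genes.

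The kinase that drives entry into mitosis, Cdk1, was at 5.09, 7.40 and 2.40 CPM in Warm progenitor libraries 1, 2 and 3 and at 0.776, 1.49 and 1.29 CPM in Cold. The groups did not overlap, and Cdk1 was 4.37-fold lower in the cold (-2.13 ± 0.43, adjusted p = 0.0125). Ube2c, the enzyme that hands ubiquitin to the anaphase-promoting complex, was at 1.79, 2.52 and 0.78 CPM in Warm and at 0.31, 0.446 and 0.379 CPM in Cold, again with no overlap and 4.64-fold lower (-2.21 ± 0.45, adjusted p = 0.0131). Birc5, survivin, was at 1.79, 2.05 and 1.07 CPM in Warm and at 0.404, 0.446 and 0.493 CPM in Cold. It had the smallest p of the members (-1.93 ± 0.32, adjusted p = 0.00858). Survivin works with the kinase Aurkb on chromosomes, and Aurkb fell as well (-1.76 ± 0.45). The mitotic kinase Plk1 (-1.64 ± 0.36), the cyclins Ccnb2 (-1.61 ± 0.43) and Ccna2 (-1.29 ± 0.35), the checkpoint kinase Bub1 (-1.59 ± 0.40), the spindle factor Tpx2 (-1.39 ± 0.31), the anaphase-promoting complex activator Cdc20 (-1.35 ± 0.29) and the cytokinesis motor Kif20a (-0.99 ± 0.25) also fell. For all 11 of these genes every Cold library lay below every Warm library.

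Another 7 mitosis genes were tested and not called. Mki67 was at 3.10, 8.18 and 7.05 CPM in Cold, so that library 2 overlapped Warm library 3, and its estimate was -1.09 ± 0.38 (adjusted p = 0.0568). Top2a (-1.26 ± 0.46), the kinetochore protein Cenpf (-0.96 ± 0.50), the spindle pole kinase Aurka (-0.83 ± 0.35), Cenpe (-0.63 ± 0.33), the checkpoint protein Bub1b (-0.35 ± 0.13) and the spindle motor Kif11 (-0.26 ± 0.31) had estimates below 0. Ccnb1, with 0 to 4 counts in a progenitor library, and the tubulin regulator Stmn1, with 1 to 8 counts, were too low to be tested.

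The replication genes did not move as a block. Mcm4 was at 29.3, 28.6 and 31.3 CPM in Warm and at 46.9, 35.4 and 39.6 CPM in Cold, without overlap, and rose (0.37 ± 0.11, adjusted p = 0.037). Mcm5, a subunit of the same helicase, was at 8.22, 9.66 and 7.60 CPM in Warm and at 6.09, 6.78 and 6.14 CPM in Cold and fell (-0.50 ± 0.14, adjusted p = 0.0279). The other helicase genes Mcm2, Mcm3, Mcm6 and Mcm7 were between 0.05 and 0.16 on the log2 scale and were not called. Tk1, thymidine kinase, fell by 0.91 on the log2 scale (SE 0.29) and Tyms by 0.56 (SE 0.16), both in the supply of thymidine nucleotides. The subunits of ribonucleotide reductase had estimates of opposite sign, with Rrm1 at 0.22 ± 0.08 (adjusted p = 0.0717) and Rrm2 at -0.46 ± 0.26 (adjusted p = 0.188). Cdc6, which loads the helicase, was at -0.20 ± 0.28, Ccne2, cyclin E2, at -0.45 ± 0.24 and Pcna at -0.18 ± 0.16.

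**Figure D3:**
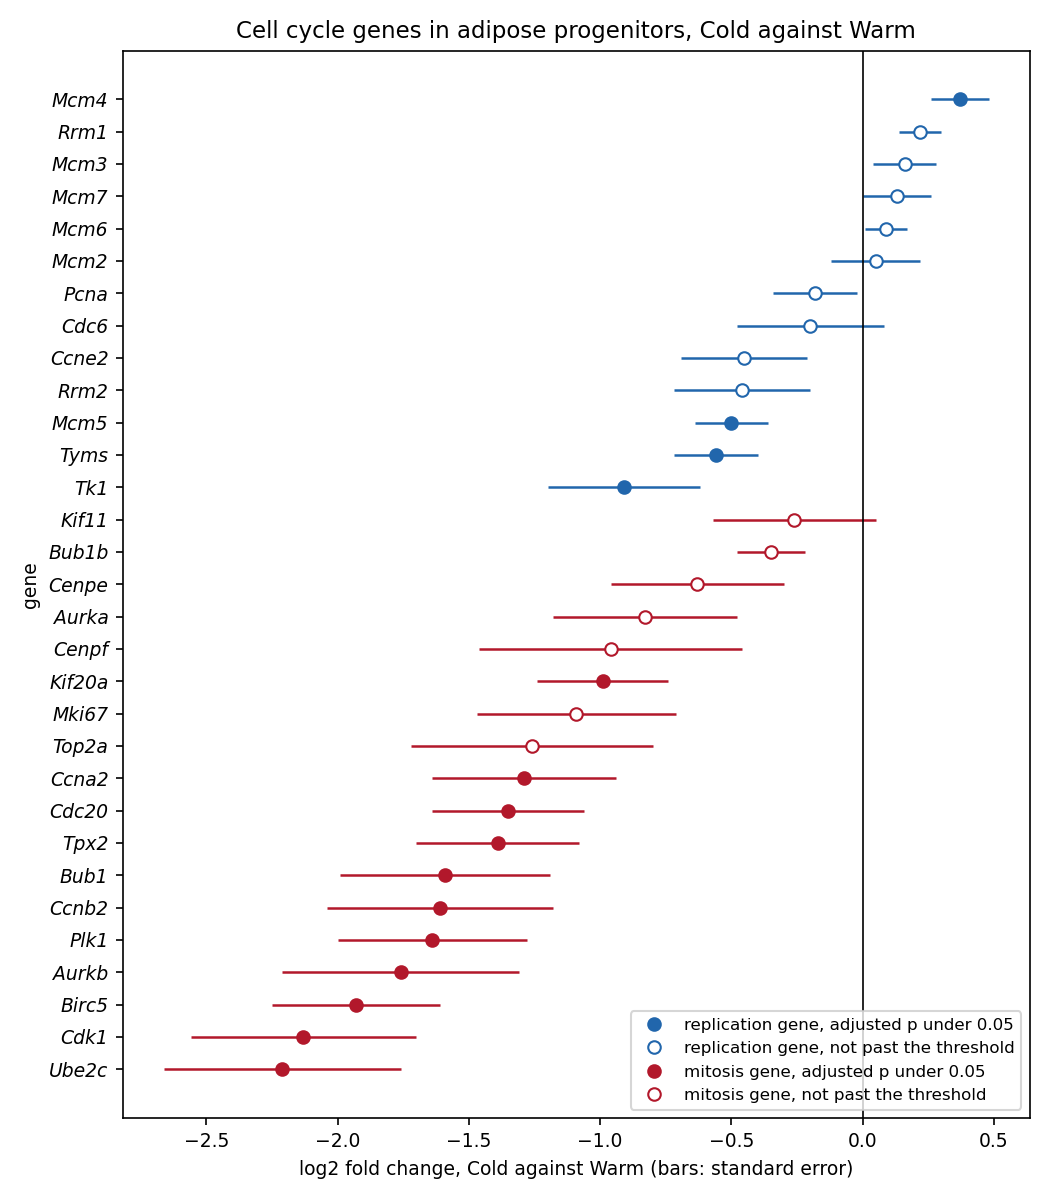
Log2 fold change of Cold against Warm progenitors (horizontal axis) with its standard error for the 31 members tested, 3 libraries a group. The 18 mitosis genes lie between -2.21 and -0.26 and the 13 replication genes between -0.91 and 0.37; filled points are past the threshold.

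The difference between the classes also showed by library. The mitosis level was 1.79, 2.07 and 1.29 in Warm and 0.55, 1.12 and 0.91 in Cold, a difference of -0.86 (pooled SD 0.35) with no overlap. It was -0.54 with a pseudocount of 2 and -0.56 over the other mitosis genes in place of the members. The replication level was 3.00, 3.09 and 2.81 in Warm and 2.92, 2.88 and 2.91 in Cold, where the groups overlapped (-0.06, pooled SD 0.10). Of other pathway genes, 19 of 37 tested mitosis genes fell and none rose (median -1.11), among them the kinase partner Cks1b (-0.89 ± 0.15) and the kinetochore gene Nuf2 (-1.79 ± 0.40), while 2 of 29 other replication genes fell and 1 rose (median -0.26). Of 17 genes of the G1 phase and the E2F family (median -0.11) 2 rose and 3 fell, beside 18.4% and 16.6% of all genes tested. The pocket proteins Rbl2 (0.75 ± 0.12, 76.2 against 42.7 CPM) and Rb1 (0.60 ± 0.13) rose, and E2f1 (-0.77 ± 0.16), Cdk4 (-0.46 ± 0.10) and 1 other gene fell. Of 14 genes of cyclin-dependent kinase inhibitors and arrest 5 rose and none fell, with Cdkn1b, which encodes p27, at 0.50 ± 0.09 (38.2 against 25.6 CPM) and Cdkn1c, p57, at 0.59 ± 0.14.

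The macrophage RNA in the progenitor libraries would bring an estimated part of the mitosis counts. It was 28.6%, 18.4% and 6.6% in Warm libraries 1, 2 and 3 and 5.7%, 19.3% and 5.0% in Cold. Warm library 3 (0.317%) and Cold library 1 (0.142%) had the lowest macrophage shares of their groups. They also had the lowest mitosis levels (1.29 and 0.55). Of 8 endothelial markers Tek was called higher in Cold progenitors (0.77, 218 against 121 CPM) and the others were not called, 6 of them with estimates below 0 (median of the 8 -0.22). Of 3 mesothelial markers tested 1 was called higher. The part of these cells in the result was not tested. With the macrophage RNA taken off, an alternative chosen after seeing the data, 14 members were called in place of 15, 13 lower and 1 higher. Cdk1 stood at -2.24 and Ube2c at -2.35, and Mcm5 lost its call (-0.39, adjusted p = 0.0579 by edgeR). Mki67, not called before, was then at -0.72 (adjusted p = 0.18 by edgeR). Other mitosis genes not called before also had estimates of smaller size. Top2a was at -1.09, Cenpf at -0.77, Cenpe at -0.35 and Kif11 at 0.015. The count rested on few libraries: it was 1 without Warm progenitor library 2 or without Cold progenitor library 3, and 6 without Warm library 1 or without Cold library 1, while the difference in mitosis level stayed between -1.07 and -0.68 in all such repeats.

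Mitosis genes were lower after bFKB1 than in Warm in both macrophage populations. Of the 20, 11 fell in M1 and 10 in M2, and none rose; 9 of these fell in both. Of the 13 replication genes 6 fell in M1 and none was called in M2. Over the 12734 genes tested, 9.45% were lower and 12.2% higher in M1, and 3.01% lower and 5.26% higher in M2. The medians were -0.35 for mitosis and -0.29 for replication genes in M1, and -0.41 and -0.15 in M2, beside -0.02 and 0.00 for all genes. The bFKB1 libraries came in a table of their own, so the antibody and any difference in handling cannot be told apart. Markers of other cells moved as well: 10 dendritic cell markers summed to 340 to 426 CPM in Warm M1 and 240 to 255 CPM in bFKB1 M1, where 4 were called lower and 1 higher. In M2 they summed to 254 to 294 and 242 to 275 CPM, with 1 called lower. The 9 T and NK cell markers summed to 89.9 to 103 CPM in Warm M1 and 130 to 141 CPM after bFKB1, without overlap. In M2 they summed to 27.6 to 29.7 and 45.0 to 49.1 CPM, again without overlap. Of these 4 were tested, 2 with estimates above 0 and 2 below in each population, and Il7r alone was called (0.55 in M1 and 0.81 in M2). The 8 mast cell and granulocyte markers summed to 1.21 to 4.20 CPM in Warm M1 and 2.08 to 16.0 CPM after bFKB1, with none of 5 called, and to 0.849 to 1.97 and 4.33 to 17.3 CPM in M2, with 2 of 5 called higher (median 3.35). Of 6 mature adipocyte markers 3 were called lower in M2 and 1 in M1. None of 8 endothelial markers was called, with medians of -0.88 in M1 and 0.74 in M2. The part of these cells in the cell cycle result was not tested.

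Mki67 was at 391, 289 and 354 CPM in Warm M1 and at 205, 206 and 222 CPM in bFKB1 M1, without overlap (-0.70 ± 0.14, adjusted p = 0.00628). In M2 it was at 329, 417 and 381 CPM in Warm and at 300, 212 and 259 CPM after bFKB1, again without overlap (-0.56 ± 0.14, adjusted p = 0.0332). Kif11, whose motor protein pushes spindle poles apart, was at 61.0, 47.0 and 57.7 CPM in Warm M1 and at 35.5, 35.4 and 39.3 CPM after bFKB1 (-0.58 ± 0.12, adjusted p = 0.00677). In M2 it was at 45.1, 49.8 and 46.7 CPM and at 34.4, 25.5 and 29.0 CPM, all 3 bFKB1 libraries below Warm (-0.69 ± 0.12, adjusted p = 0.00795). Cenpf (-0.63 ± 0.15 in M1 and -0.68 ± 0.15 in M2), Top2a (-0.56 ± 0.11 and -0.52 ± 0.11), Aurkb (-0.54 ± 0.13 and -0.53 ± 0.13), Ube2c (-0.47 ± 0.12 and -0.49 ± 0.13), Cenpe, Bub1b and Cdc20 fell in both populations. Cdk1 and Bub1 were called in M1 alone and Ccna2 in M2 alone, with Cdk1 at -0.33 ± 0.11 and -0.23 ± 0.11 and Ccna2 at -0.33 ± 0.11 and -0.42 ± 0.12 in M1 and M2. With the replicate number as a block, Mcm2 (adjusted p = 0.0537) and Mcm3 (adjusted p = 0.0704) lost their calls in M1 and Cenpe lost its call in M2 (adjusted p = 0.0543), where Ccnb2 (adjusted p = 0.0259) and Kif20a (adjusted p = 0.0384) were then called, all by edgeR.

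The helicase genes Mcm7 (-0.39 ± 0.07), Mcm4 (-0.43 ± 0.09), Mcm5 (-0.39 ± 0.10), Mcm2 (-0.36 ± 0.10) and Mcm3 (-0.25 ± 0.08) and Rrm1 (-0.26 ± 0.07) were the replication genes that fell in M1. In M2 they had smaller estimates, from -0.14 to -0.22, and none was called. Pcna was at 0.12 ± 0.07 in M1 and 0.00 ± 0.07 in M2, and Mcm6 at -0.07 ± 0.09 and -0.01 ± 0.09. A difference between the populations in their response was not shown: of 12734 genes 0 (0%) were called by edgeR for the bFKB1 effect in M2 minus M1, with 976 at an unadjusted p under 0.05 and 76 called by DESeq2, and none of the 33 members was under 0.05 even unadjusted. The replication level differed by -0.29 (pooled SD 0.07) in M1 without overlap and by -0.16 (pooled SD 0.15) in M2 with overlap, the mitosis level by -0.38 and -0.41 without overlap.

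**Figure D4:**
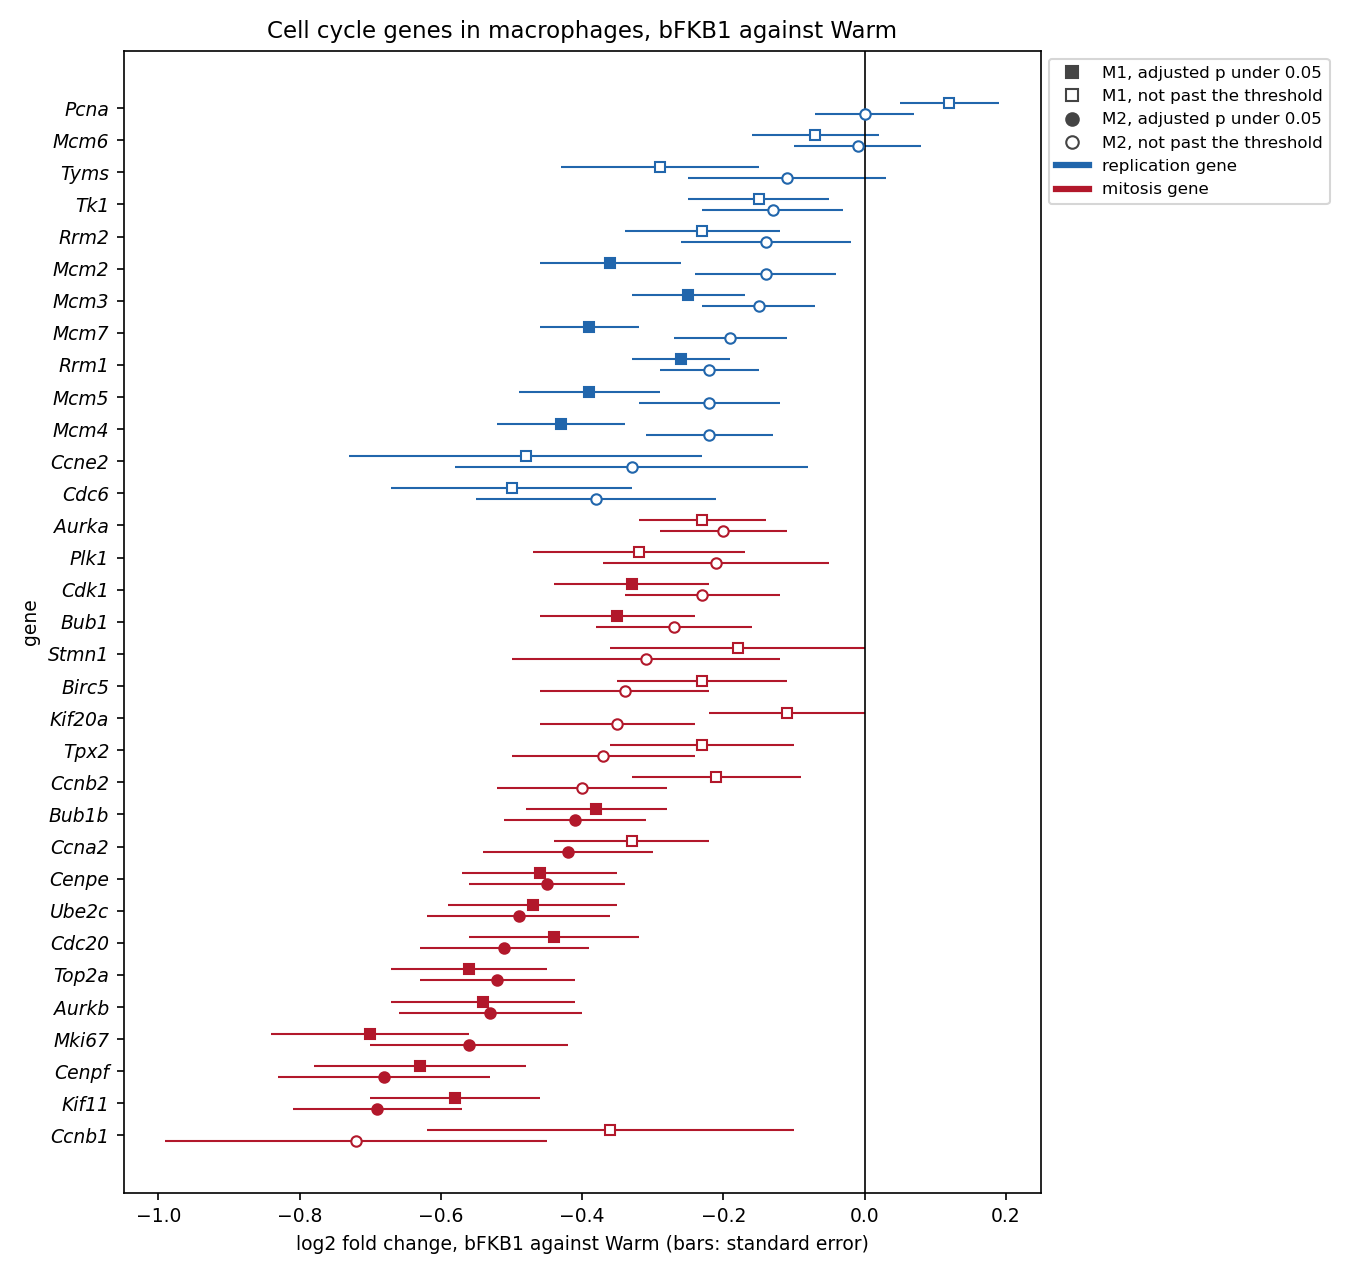
Log2 fold change of bFKB1 against Warm (horizontal axis) with its standard error for the 33 members in M1 (squares) and M2 (circles), 3 libraries a group. All 20 mitosis genes have estimates below 0 in both populations; filled symbols are past the threshold, 17 in M1 and 10 in M2.

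Other genes of the pathway moved with them. Of 40 other mitosis genes 20 fell and 1 rose in M1 and 17 fell in M2, such as Kif15 (-0.59 ± 0.13 and -0.67 ± 0.13). Of 30 other replication genes 11 fell in M1 and 2 in M2, Uhrf1 in both (-0.50 ± 0.08 and -0.48 ± 0.08). E2f8, an E2F that represses, fell in both (-0.45 ± 0.09 and -0.47 ± 0.10). Of the 14 inhibitor and arrest genes 4 rose and 2 fell in M1, among them Cdkn2a at 1.68 against 0.382 CPM (2.13 ± 0.35) and Cdkn2b at 1.30 against 0.435 CPM (1.57 ± 0.33), both low genes. In M2 only Gadd45a was called (1.05 ± 0.25). The member counts depended on single libraries: in M1 17 became 6 without Warm M1 library 1 or 3, 7 without bFKB1 M1 library 1, 9 without library 2 and 11 without library 3. In M2 10 became 5 without Warm M2 library 1, 1 without Warm M2 library 2 or 3, 1 without bFKB1 M2 library 2 and 2 without library 3, and, through the shared spread, 5 and 6 without bFKB1 M1 libraries 2 and 3.

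In M1 macrophages 10 of 13 replication genes and 8 of 20 mitosis genes were lower in Cold as the counts stand, with none higher. Among the 12981 genes tested 21.5% were lower and 22.4% higher as the counts stand. Only 4 of these 18 member calls remained when an estimate of the progenitor RNA of these libraries was taken off. The share of all genes called after that step is not given, so the loss cannot be set against genes at large. The medians were -0.43 for replication and -0.32 for mitosis genes, against -0.03 for all genes, and all 33 estimates were below 0. Mcm5 was at 151, 135 and 154 CPM in Warm and at 75.2, 102 and 106 CPM in Cold libraries 1, 2 and 3 (-0.65 ± 0.13, adjusted p = 0.00244). Cold M1 library 1, which had the highest progenitor share, was the lowest, and the groups did not overlap. Aurkb was at 43.0, 32.6 and 39.7 CPM in Warm and at 18.9, 23.7 and 28.2 CPM in Cold (-0.73 ± 0.14, adjusted p = 0.00216). Cdc6 was at 7.32, 6.55 and 7.02 CPM and at 4.55, 4.68 and 4.62 CPM (-0.61 ± 0.11, adjusted p = 0.00182), with close values in all 3 Cold libraries.

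With the expected progenitor counts taken off, the medians were -0.17 for replication and 0.04 for mitosis genes, and Aurkb (-0.37), Mcm4 (-0.40), Mcm5 (-0.31) and Mcm7 (-0.30) were still called and lower. Cdc6 was at -0.30 and no longer called. Tk1 turned from -0.33 to 0.02 and Ccna2 from -0.34 to 0.01, neither called. The subtraction did not level the progenitor markers themselves. Of the 11 still tested 3 were called higher and 1 lower in Cold, with a median of 2.23 against 2.32 over 16 before. Mmp2 was then at 15.89 and Cd34 at -10.48, so the subtracted counts are a rough correction. Scaling to 2462 genes that are low in progenitors, 19 members among them, brought the median of all genes from -0.03 to 0.32 and left 3 calls, Mcm5 (-0.32), Mcm7 (-0.20) and Aurkb (-0.39). That scaling put 6164 genes higher and 599 lower in Cold, in place of 2910 and 2795. Without Warm M1 library 1 or 3 the count of 18 members was 9, and without Cold M1 library 1 it was 11. Of other pathway genes, 19 of 30 replication genes fell, with Uhrf1 at -0.76 ± 0.13, and 26 of 40 mitosis genes fell and 1 rose, with the separase gene Espl1 at -0.63 ± 0.11. With progenitor counts taken off, a count added after seeing the data, 4 and 3 of these were lower and none higher, Uhrf1 at -0.42 ± 0.09 and Espl1 at -0.30 ± 0.08. Of 18 genes of G1 and the E2F family 10 fell and 3 rose, and with progenitor counts taken off 6 were lower and 1 higher. The cyclin D2 gene Ccnd2 rose from 15.8 ± 1.03 to 30.0 ± 1.36 CPM (SD, n = 3; 0.91 ± 0.09, and 0.93 ± 0.09 with progenitor counts taken off). The cyclin D3 gene Ccnd3 fell (-0.96 ± 0.11, and -1.09 ± 0.20).

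Markers of further cells differed in the same M1 comparison. Mast cell and granulocyte markers summed to 1.21 to 4.20 CPM in Warm and 13.6 to 22.8 CPM in Cold, with 4 of 5 tested called higher (median 3.24). They were higher in M2 too, where no member was called, at 0.849 to 1.97 and 10.4 to 18.8 CPM. Of 10 dendritic cell markers 5 were called higher in Cold M1, of 6 mature adipocyte markers 3 higher and 1 lower, and of 4 mesothelial markers 2 higher. Their part in the result was not tested.

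**Figure D5:**
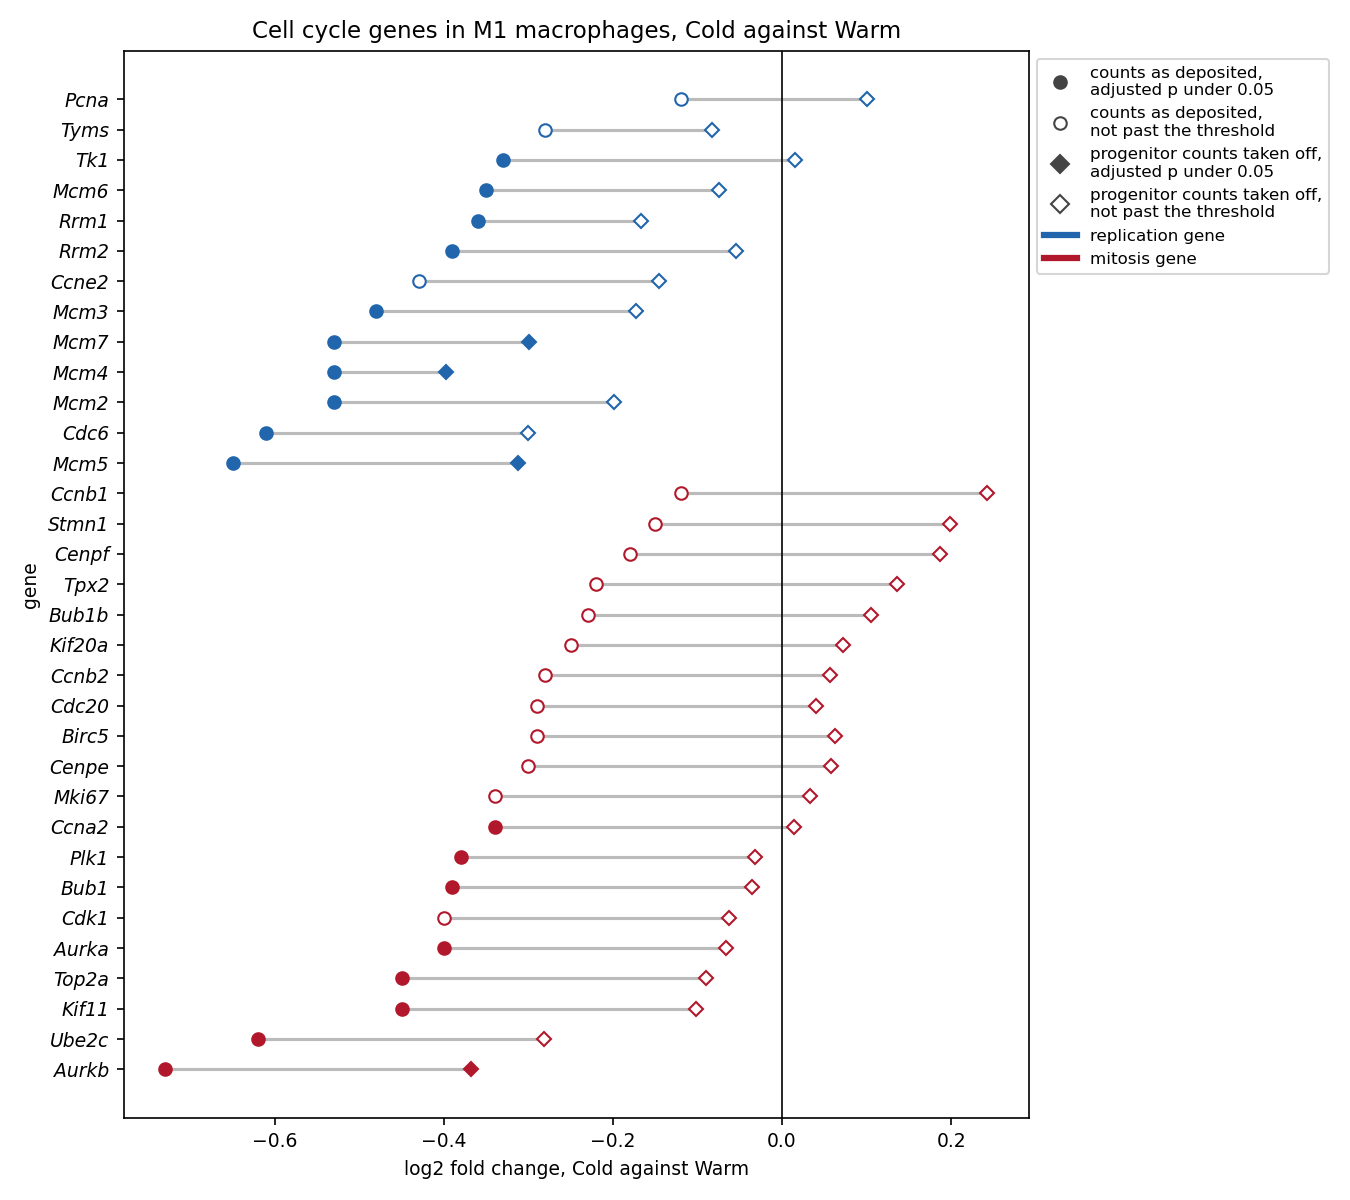
Log2 fold change of Cold against Warm in M1 (horizontal axis) for the 33 members, with the counts as deposited (circles) and with expected progenitor counts taken off (diamonds). All circles lie below 0 and 18 are past the threshold (filled); 4 diamonds are.

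In M2 macrophages, whose libraries held little progenitor RNA, no member was called in the cold. None of the 33 had an unadjusted p under 0.05 with edgeR, DESeq2 called none either, and 5.69% of the 12981 genes were lower and 4.41% higher. Without Cold M2 library 1 the count was 1. Estimates ran from -0.25 to 0.02 for replication genes and from -0.32 to 0.05 for mitosis genes. Mki67 was at 329, 417 and 381 CPM in Warm and at 303, 354 and 357 CPM in Cold, with overlap, and Mcm5 at 82.6, 103 and 84.3 CPM and at 84.7, 86.9 and 72.3 CPM. The mitosis level was 4.82, 4.84 and 4.83 in Warm and 4.80, 4.78 and 4.63 in Cold, a difference of -0.09 (pooled SD 0.07) without overlap, which was -0.16 on the TMM scale and -0.03 over the other mitosis genes. The replication level overlapped (-0.03, pooled SD 0.12). None of the 70 other replication and mitosis genes was called. A difference between M1 and M2 in the cold effect was called for 2.31% of genes in either direction and for no member, with 8 members at an unadjusted p under 0.05 and 2, Mcm2 and Mcm3, called by DESeq2. The largest of these was Cdc6 (0.59 ± 0.16, adjusted p = 0.0605). The median over the members was 0.25, but it turned to -0.08 with progenitor counts taken off and to -0.06 with scaling to genes low in progenitors. Without Warm M1 library 2 the test called 3 members and without Cold M1 library 3 it called 2.

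Between the macrophage populations 6 of the 33 members were called in Warm, 2 in Cold and 10 after bFKB1. With both directions counted, genes at large were called more often in each of these comparisons. Higher and lower in M1 were 22.5% and 22.8% of them in Warm, 27.8% and 26.9% in Cold and 23% and 24.6% after bFKB1. In Warm, 4 replication genes were higher in M1 than in M2, with 22.5% of 12981 genes higher and 22.8% lower: Mcm5 (0.62 ± 0.13; values above), Rrm2 (0.56 ± 0.14), Mcm7 (0.48 ± 0.11) and Tk1 (0.38 ± 0.10). Rrm2 was at 33.8, 31.7 and 37.5 CPM in M1 and at 18.6, 24.4 and 22.6 CPM in M2. Of the mitosis genes Bub1 was higher (0.37 ± 0.12, adjusted p = 0.0241) and Cenpf lower (-0.42 ± 0.15, adjusted p = 0.0417). With condition and replicate number together as a block, Bub1 was not called (adjusted p = 0.050 by edgeR). Mki67 was not called (-0.21 ± 0.13). Of the other replication genes 12 of 30 were higher and none lower, with Dut, whose enzyme breaks down dUTP, at 0.67 ± 0.12 and Ung, whose enzyme removes uracil from DNA, at 0.74 ± 0.15, and the other mitosis genes went 6 higher and 6 lower of 40, with Kif23 at -0.91 ± 0.10 and Cks1b at 1.02 ± 0.18. Cyclin D2 (Ccnd2) was higher in M1 by 1.84 ± 0.10. Markers of other cells differed as well: 6 of 8 endothelial markers (median 1.25), 5 of 10 dendritic cell markers and 3 of 4 tested T and NK cell markers were higher in M1, and 5 of 6 mature adipocyte markers were lower. In Cold and after bFKB1 6 dendritic cell markers were higher in M1, while of the endothelial markers 1 and none were called. Their part in the result was not tested.

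After bFKB1 10 members were higher in M1 than in M2 and none lower, 4 replication and 6 mitosis genes, with 23% of 12734 genes higher and 24.6% lower. The same 4 replication genes were called: Mcm5 (0.45 ± 0.10), Rrm2 (0.48 ± 0.12), Mcm7 (0.29 ± 0.08) and Tk1 (0.36 ± 0.10). The mitosis genes were Ube2c (0.49 ± 0.12), Kif20a (0.41 ± 0.11), Ccnb2 (0.40 ± 0.12), Birc5 (0.38 ± 0.12), Aurka (0.26 ± 0.09) and Bub1 (0.29 ± 0.11). Without bFKB1 M1 library 3 the count was 6. In Cold 2 members were called, Cdc6 (-0.52 ± 0.11) and Mcm3 (-0.36 ± 0.10), both lower in M1, with 27.8% of 12981 genes higher and 26.9% lower. With expected progenitor counts taken off, 15 members were higher in M1 in Cold and none lower, and 11 were higher and 1 lower in Warm. With scaling to genes low in progenitors the direction turned, with 10 lower and 1 higher in Warm, 6 lower and 1 higher in Cold and 6 lower after bFKB1. That scaling also turned the median of all genes from positive to negative in Warm and after bFKB1 (values below). The shares of all genes called under these alternatives are not given. Whether these counts differ from those of genes at large therefore cannot be told, and they are not read as a result about the members. Without single libraries the count of 2 in Cold was 4 to 6 for Warm M1 libraries 1 and 2, Cold M1 libraries 1 and 3, Warm M2 library 1 and Cold M2 library 1.

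Genes outside the members whose levels ran most closely with the class levels were sought over the 24 libraries among genes of at least 1 CPM. With the mitosis level these were Spag5, Kif4 and Cep55 (Pearson r = 0.998), then Racgap1, Ndc80, Kif22, Cdca3 and Dlgap5 (0.997). With the replication level they included Pole, Uhrf1 and Fen1 (0.996), C330027C09Rik, Chaf1a and Rbl1 (0.995) and Fam49b (0.994). The 24 points fall into macrophages and progenitors, which share their cell type and sort, so r spans the gap between these. Within the 18 macrophage libraries, a choice made after seeing the data, Smc2 (0.971), Spag5 (0.969), Kif4 (0.959) and Cep55 (0.954) ran closest to the mitosis level and Uchl5 (0.960), Nup107 (0.947), Rbl1 (0.945) and Chaf1a (0.930) to the replication level.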

How the data were processed

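Raw counts per gene, deposited by the authors in 2 tables (18 Warm and Cold libraries, 6 bFKB1 libraries), were used as they stand. Per the submitters' processing notes, CASAVA 1.8, GSNAP and the build GRCm38 were used; which program counted reads, on which annotation, is not stated. Poly-A selection is given in the labels' protocols for Warm and Cold only. In 27 rows a date replaced the gene symbol; these rows (0.148% to 0.192% of a library) were left out. The 24 libraries hold 14.4 to 34.6 M counts. Counting error at that depth does not cover variation between mice.

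Fits used R 4.3.3 and edgeR 4.0.16 (filterByExpr, TMM, 1 mean per group, quasi-likelihood F-test, Benjamini-Hochberg over all genes tested, threshold 0.05): 12 Warm and Cold macrophage libraries, 12 Warm and bFKB1 macrophage libraries, 6 progenitor libraries, and 18 Warm and Cold libraries for progenitors against macrophages. Standard errors are the absolute log2 fold change over the square root of F. CPM are over library totals. All 33 members passed the filter except Ccnb1 and Stmn1 in the progenitor fit. Of these fits, only that of the Warm and Cold macrophage libraries and that of the progenitor libraries were tried on simulated counts. Those counts had the same fixed spread for all genes and did not model RNA from other cells, so they do not show how the fits perform on these libraries. The members, lists and tests were chosen with earlier results of these data known. Named genes are the members, up to 4 called genes with the smallest p per list and comparison (part is given), Pdgfra, Dcn, Csf1r, Itgax and Mrc1, and 8 genes most like each class level, of which 1 is not reported here; Gadd45a in M2 was the only call of its list, and DESeq2's calls were named after their values were seen.

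Progenitor RNA in macrophage libraries was estimated as the median ratio over 16 markers, macrophage RNA in progenitor libraries over 12. Promoters (RefSeq, GRCm38.p6) were matched by symbol. Exon lengths for CPM per kilobase are from GENCODE M21. Alternatives were DESeq2 1.42.0, RLE scaling, no filter, a replicate block, a fit of all 24 libraries, scaling to genes low in progenitors, subtraction of the estimated RNA, other pseudocounts, and leaving out each library. The block was condition with replicate number for M1 against M2 and for differences between effects, and replicate number alone elsewhere. No label says that same-numbered libraries of different conditions belong together. Deviations from the group mean in same-numbered M1 and M2 libraries correlated with r = 0.166, 0.315 and 0.227 in Warm and 0.415, 0.114 and 0.357 in bFKB1. In Cold r was -0.38, -0.099 and -0.165, and between Warm and Cold progenitors -0.064, 0.374 and 0.305. Deviations within a group are tied to one another, so these values do not settle which libraries were paired. For bFKB1 libraries the numbers of titles and characteristics differ, and the titles' were used. Same-group libraries differed by more than sampling noise. No label says that libraries came from separate cohorts, so p-values measure the spread between these libraries.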

Additional observations from a re-analysis of the deposited data

How the results depend on the processing

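Most member results kept direction and side of the threshold under DESeq2, RLE scaling, no filter and the replicate block. Between conditions that block joined libraries by number only, with no label that pairs them. The replicate block gave 5 called members for M1 against M2 in Warm, 16 for Cold in M1, 15 and 11 for bFKB1 in M1 and M2 and 17 for progenitors in the cold, where Mki67 (adjusted p = 0.0209 by edgeR) and Top2a (adjusted p = 0.0291) were then called. In a fit of all 24 libraries the called members were 3 for M1 against M2 in Warm, 3 in bFKB1, 11 for Cold in M1, 6 for bFKB1 in M1 and 2 for bFKB1 in M2, and the called genes 521 for bFKB1 in M2 and 895 for the cold effect in M2 minus M1. DESeq2 called 1488 genes and 2 members for that cold effect and 76 genes for the bFKB1 effect.

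Scaling to genes low in progenitors gave 11, 7 and 6 members for M1 against M2 in Warm, Cold and bFKB1, 3 for Cold in M1, 724 genes for Cold in M2 and 195 for the cold effect, and brought the median of all genes for M1 against M2 from 0.04 to -0.26 (Warm) and from 0.01 to -0.25 (bFKB1). Subtraction of progenitor counts gave 12 and 15 members for M1 against M2 in Warm and Cold, 4 for Cold in M1 and 762 genes for the cold effect. Tk1 in Cold M1 reversed to 0.004 under the scaling and to 0.015 under the subtraction, and Ccna2 to 0.014 under the subtraction. Both alternatives act on libraries with more progenitor RNA by construction. Where the share of all genes called is not given, these member counts cannot be set against genes at large.

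The level differences of progenitors were, against M1, -2.170 (pseudocount 2), -2.108 (TMM scale) and -2.303 (other genes of the class) for replication and -2.792 and -2.987 (pseudocount 2, other genes) for mitosis; against M2 they were -1.859, -1.879 and -1.941 for replication and -2.609 (pseudocount 2) for mitosis. The cause of these shifts was not tested.

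Leaving out 1 library gave, in called members, 4 to 8, 2 to 6 and 6 to 14 for M1 against M2 in Warm, Cold and bFKB1, 9 to 23 for Cold in M1, 0 to 1 for Cold in M2, 0 to 3 for the cold effect, 6 to 21 and 1 to 12 for bFKB1 in M1 and M2, 0 for the bFKB1 effect, 1 to 19 for progenitors in the cold, and 33 and 32 to 33 for progenitors against M1 and M2. In called genes it gave 5038 to 6426, 6156 to 7494 and 5034 to 6599 for M1 against M2, 4066 to 6038 and 531 to 1802 for Cold in M1 and M2, 23 to 1982 for the cold effect, 1449 to 3809 and 394 to 1372 for bFKB1 in M1 and M2, 0 to 46 for the bFKB1 effect and 489 to 6437 for progenitors in the cold. Groups of 3 libraries limit every count, and members under 1 CPM in progenitors rest on few reads.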

Other observations

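Genes for growth signals were listed beside the cell cycle. In M2, Spp1, the secreted protein osteopontin, was at 93.4 ± 16.3 CPM after bFKB1 and at 22.9 ± 5.11 CPM in Warm (SD, n = 3) and rose (2.02 ± 0.18 SE, adjusted p = 0.000239 with edgeR). It also rose in M1 (1.00 ± 0.17). Il4ra, a receptor chain for interleukin-4, fell in both (-0.52 ± 0.06 in M1 and -0.57 ± 0.06 in M2). Of these 13 macrophage genes, 3 rose and 2 fell in M1 (12.2% and 9.45% of all genes tested) and 2 rose and 3 fell in M2 (5.26% and 3.01% of all). In Cold, Cdkn1a, which encodes the kinase inhibitor p21, was at 90.8 ± 6.86 CPM in M2 against 170 ± 4.84 CPM in Warm and fell (-0.97 ± 0.11), where no member was called. In progenitors Pdgfra rose in the cold (0.88 ± 0.17, 1120 against 574 CPM) and its ligand gene Pdgfa fell (-0.85 ± 0.21, 2.34 against 4.04 CPM); 4 of 12 progenitor growth genes rose and 2 fell, beside 18.4% and 16.6% of all genes tested.

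Macrophage markers differed between M1 and M2 in Warm. Itgax, which encodes CD11c, was at 728 to 828 CPM in M1 and at 75.2 to 125 CPM in M2, and Mrc1, CD206, at 1680 to 1720 and 5620 to 5840 CPM.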
